A study of Mus musculus with 64 samples.

Results

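Cirbp and Rbm3 encode small glycine-rich RNA-binding proteins whose transcripts rise when cells are mildly cooled, and their levels were followed over a day in whole mouse hearts. The genes were taken as every probe that the platform annotation names Cirbp or Rbm3, which gave 2 of 16593 named genes and 4 of the 25697 probes on the Illumina MouseRef-8 v2 bead array (1 for Cirbp and 3 for Rbm3). The hearts came from male CBK mice, in which BMAL1 is deleted in cardiomyocytes (knockout, KO), and from wild type littermates (WT), both on the C57Bl/6J background. All mice ate standard chow at will, with lights on for 12 of every 24 h. The 64 arrays form 16 groups of 4, with knockout and then wild type at each of 8 times of day, each 3 h after the last and counted as zeitgeber time (ZT) with lights on at ZT0. The sources used here state neither age nor the Cre driver of the deletion. RNA was taken from the whole heart, so cells other than cardiomyocytes keep BMAL1, and fewer cells of a type cannot be told apart from less RNA per cell. Samples carry numbers, with no statement that each is its own mouse, so the spread behind every p-value may be partly technical. Where single values are given below, a heart stands for an array and not for a mouse known to be separate.

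CIRBP and RBM3 bind RNA and act on its stability, its splicing, the choice of polyadenylation sites and its translation. In mammals core temperature follows a daily cycle, low in the rest phase and high in the active phase, which for mice under a light-dark schedule is the dark phase. In cultured mouse cells exposed to such temperature cycles Cirbp is known to oscillate opposite to temperature, and CIRBP protein there binds the transcript of Clock, the partner of BMAL1, and raises the amplitude of clock genes. The heat shock genes respond to temperature in the other direction, through heat shock factors. The comparison of hearts with and without BMAL1 in cardiomyocytes asks whether the rhythm and the level of these transcripts differ when the clock of those cells is removed. No body or heart temperature was used here, so the transcripts are described only against time.

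The promoter of Cirbp is shown because it holds the element through which mild cold is reported to raise this gene. RefSeq (GRCm38.p6) lists 2 start windows for Cirbp on the plus strand of chromosome 10, and the 250 bases before the first start, chr10:80167589-80167838, read as follows, with the mild-cold response element in capitals.
Cirbp promoter, first start: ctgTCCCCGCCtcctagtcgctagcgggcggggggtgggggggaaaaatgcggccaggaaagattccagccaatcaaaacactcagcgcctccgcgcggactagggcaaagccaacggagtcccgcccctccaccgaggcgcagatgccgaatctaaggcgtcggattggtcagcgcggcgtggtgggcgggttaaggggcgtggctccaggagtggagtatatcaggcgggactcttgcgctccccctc
The element, TCCCCGCC searched on both strands, was found 247 bases before that start and 0 times before the other start (chr10:80167921-80168170). It occurs in 4.64% of the 32851 mouse windows of the same length. Neither Cirbp window held the E-box CACGTG, to which CLOCK and BMAL1 bind and which 6.02% of windows hold. Neither held GAANNTTC or TTCNNGAA, parts of the heat shock element found in 6.69% and 7.17% of windows. These matches describe letters in a window and not binding.

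The Cirbp probe, ILMN_2761594, was detected (detection p under 0.01) on 32 of 32 knockout and 32 of 32 wild type arrays, with scanner intensities between 253.5 and 1042.1. The brightest Rbm3 probe, ILMN_1234453, was likewise detected on 32 of 32 knockout and 32 of 32 wild type arrays, between 426.6 and 2128. The remaining Rbm3 probes were close to background. ILMN_2985568 was detected on 3 knockout arrays and 1 wild type array, and ILMN_1253012 on 0 knockout and 2 wild type arrays. Of the 4 probes, 3 passed the filter of detection on at least 4 arrays, ILMN_2985568 with no array to spare, and ILMN_1253012 was not tested. Values of Rbm3 below are from ILMN_1234453 unless another probe is named, and levels of different probes are not set against each other.

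**Figure D1:**
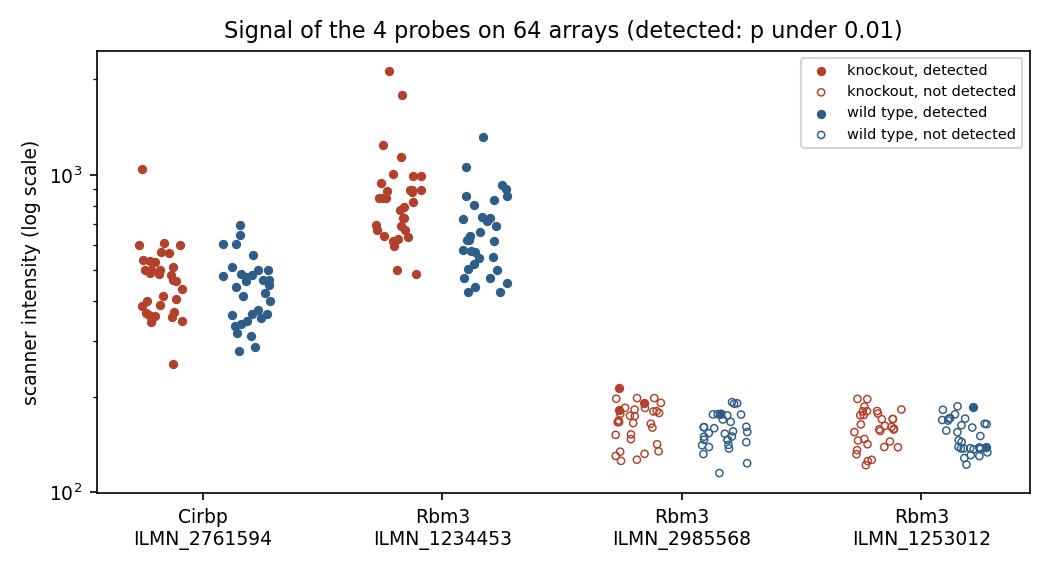
Scanner intensity (log scale) of each of the 4 probes on each array, knockout left of wild type, with filled points where the probe was detected. Cirbp and the brightest Rbm3 probe are filled on all 64 arrays, while the other Rbm3 probes lie between 115 and 213.7 and are open on nearly all arrays.

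Across the series 9237 to 10605 probes were detected per array (9972 ± 350 in knockout and 9953 ± 318 in wild type, SD, n = 32 each), and the median scanner signal per array was 119.4 to 196.4. The cardiomyocyte markers Myh6 (log2 level 14.80 in knockout, 14.89 in wild type) and Actc1 (14.90 in knockout, 14.95 in wild type) were near the top of the scale. Arntl, which encodes BMAL1, had log2 levels of 6.92 to 7.44 in knockout and 7.72 to 8.34 in wild type hearts at ZT0, and of 6.04 to 6.29 in knockout and 4.99 to 5.74 in wild type hearts at ZT12. The genotypes do not overlap at either time, but the sources used here do not say whether its probe lies in the deleted part, so its level does not check the labels. The sample numbers of ZT 0, 6, 12 and 18 run from 1 to 154 and those of ZT 3, 9, 15 and 21 from 156 to 209, and these 2 time sets of 32 arrays were kept apart by a term in the fits. In 4 arrays the spread around their group means over all tested probes was more than 1.5 times that of the median array: knockout ZT9 replicates 170 and 206, knockout ZT6 replicate 2 and wild type ZT6 replicate 1. The rhythm in each genotype, the 24 h mean, the time set term and the correlation of both genes are given with and without them below. For single times and for times 12 h apart only the number of calls over both genes is given. Without these arrays it was 0 for single times and 1 for times 12 h apart, as in the full fit.

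Cirbp was highest at ZT9, late in the light phase, and its lowest measured group mean was at ZT0, in both genotypes. At ZT9 Cirbp had log2 intensities of 8.60, 8.67, 8.93 and 9.65 in knockout hearts, against 8.70, 9.04, 9.13 and 9.28 in wild type hearts. At ZT0 Cirbp had 7.40, 7.86, 7.93 and 8.16 in knockout hearts, against 7.64, 8.04, 8.24 and 8.28 in wild type hearts. Within each genotype no ZT9 heart fell among the ZT0 hearts, while knockout and wild type overlapped at both times. These times were picked as the highest and lowest means, and the share of tested probes that separate them was not computed. The ZT9 and ZT0 hearts belong to different time sets, so this contrast also holds the difference between the sets. With that fitted difference removed ZT9 was still the highest time, at 8.81 in knockout and 8.89 in wild type, and the lowest was ZT3, at 7.89 in knockout and 8.01 in wild type.

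The other hearts of the light phase lay between these extremes or close to the ZT0 values. At ZT3 Cirbp had 7.55, 8.04, 8.23 and 8.34 in knockout hearts, against 8.00, 8.11, 8.25 and 8.28 in wild type hearts. At ZT6 Cirbp had 7.56, 8.27, 8.30 and 8.78 in knockout hearts, against 7.90, 8.02, 8.23 and 8.50 in wild type hearts. The genotypes overlapped at both times, and at each time 1 knockout heart was lower and 1 was higher than every wild type heart.

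In the dark phase the Cirbp level was intermediate. At ZT12 Cirbp had 8.02, 8.02, 8.45 and 8.57 in knockout hearts, against 8.42, 8.43, 8.45 and 8.71 in wild type hearts. At ZT15 Cirbp had 8.26, 8.44, 8.75 and 8.78 in knockout hearts, against 8.24, 8.27, 8.67 and 8.73 in wild type hearts. At ZT12 2 knockout hearts lay below every wild type heart, and at ZT15 2 lay above every wild type heart. At ZT18 Cirbp had 7.79, 8.10, 8.11 and 8.53 in knockout hearts, against 8.07, 8.21, 8.33 and 8.54 in wild type hearts. At ZT21 Cirbp had 8.12, 8.47, 8.48 and 8.65 in knockout hearts, against 7.88, 8.03, 8.36 and 8.42 in wild type hearts. The genotypes overlapped at each of the 8 times.

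**Figure D2:**
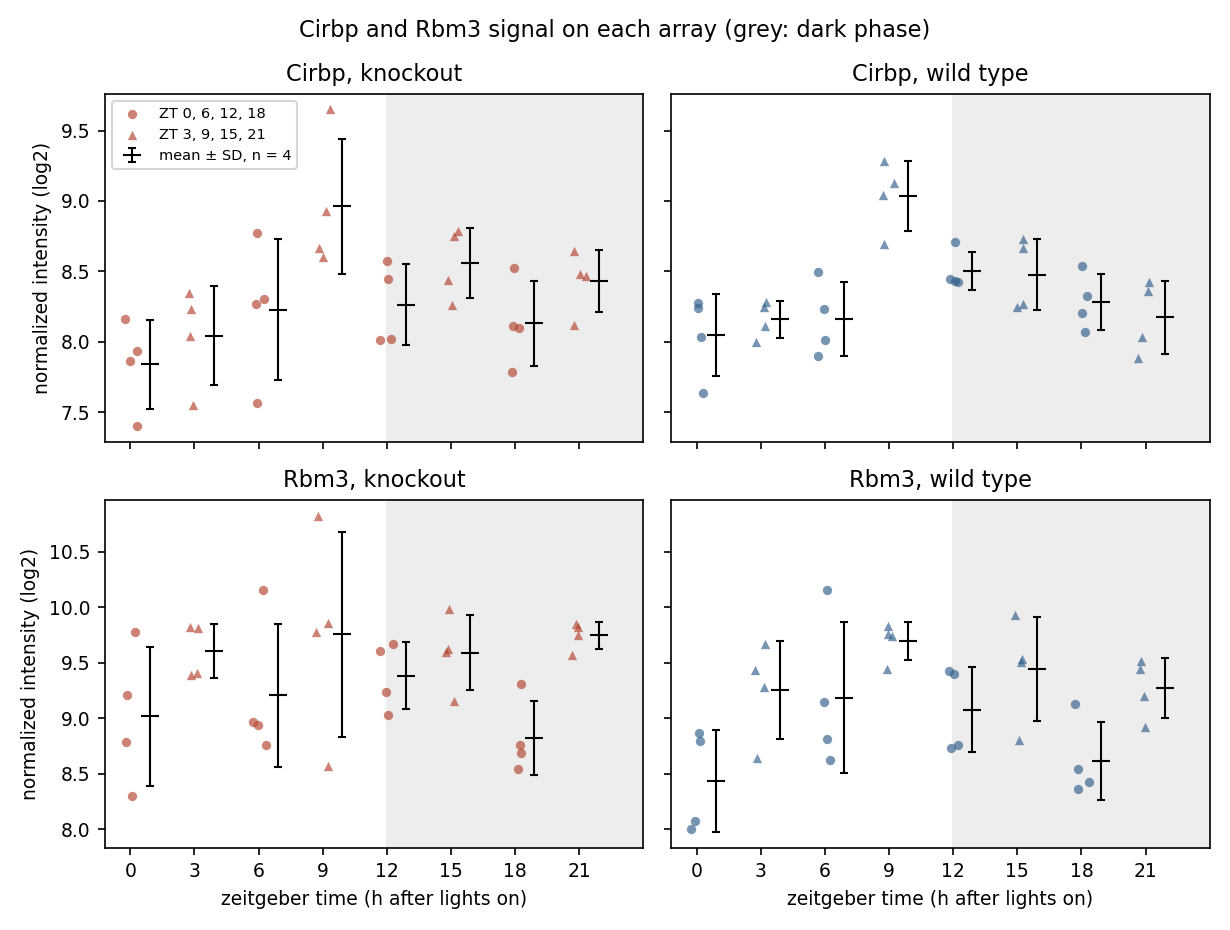
Normalized log2 intensity of Cirbp (top) and Rbm3 (bottom) on each array against zeitgeber time, knockout left and wild type right, with circles for ZT 0, 6, 12 and 18, triangles for ZT 3, 9, 15 and 21, and the mean ± SD of each group of 4 in black. Measured group means of both genes are highest at ZT9, with Rbm3 in knockout nearly as high at ZT21. The triangles of Rbm3 lie above most of its circles, and with the set difference removed Rbm3 is highest at ZT12 in knockout and ZT6 in wild type.

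The fitted daily rhythm of Cirbp passed the test in wild type and missed it in knockout, and the rhythms of the genotypes were not shown to differ. A 24 h cosine was fitted to each genotype with limma, where the amplitude is the log2 distance from the mean of the curve to its peak. Adjusted p-values are Benjamini-Hochberg values over the 12101 tested probes, with a threshold of 0.05. In knockout hearts the amplitude was 0.29 ± 0.08 (SE), a 1.5-fold difference between peak and trough, with a peak at ZT 11.6 ± 1.03 h and an adjusted p of 0.0872, and 1.17% of tested probes were called rhythmic. In wild type hearts the amplitude was 0.33 ± 0.08 (SE), 1.58-fold between peak and trough, with a peak at ZT 11.2 ± 0.91 h and an adjusted p of 0.0196, and 3.55% of tested probes were called. The amplitude in knockout minus that in wild type was -0.04, with a 95% interval from -0.26 to 0.19. The test of both rhythm parameters together gave an adjusted p of 1.00, and 0.24% of tested probes were called in it. The peaks differed by 0.41 ± 1.37 h (SE). Among all tested probes the Cirbp amplitude stood at the 98.4th percentile in knockout and the 98.5th in wild type. The wild type call was lost without replicate 175 of wild type ZT9 (adjusted p = 0.0528), with median scaling (adjusted p = 0.0822), without the time set term (adjusted p = 0.0522), and in either time set alone. Without the 4 arrays of wide spread the amplitude was 0.23 in knockout (adjusted p = 0.277) and 0.33 in wild type (adjusted p = 0.00717).

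Differences between times 12 h apart, taken within one time set, gave 1 call in the 8 contrasts of Cirbp. In knockout hearts ZT21 minus ZT9 was -0.53 ± 0.21 (SE, adjusted p = 0.127, with 3.7% of tested probes called). In wild type hearts it was -0.86 ± 0.21 (SE, adjusted p = 0.0216), and 0.851% of tested probes were called. The difference between these contrasts was not tested on its own. Of the knockout ZT9 hearts, replicates 170 and 206 (8.93 and 9.65) are arrays of wide spread. The size of the knockout contrast without them is not given here. In knockout 1 ZT21 heart, at 8.65, lay within the ZT9 range, while in wild type the ZT9 hearts all lay above the ZT21 hearts. Groups did not overlap in that contrast for 7.28% of tested probes in knockout and 9.31% in wild type. The other contrasts, none of them called for Cirbp, called 0.198% (ZT12 minus ZT0), 0.0331% (ZT18 minus ZT6) and 0.413% (ZT15 minus ZT3) of probes in knockout, and 0.463%, 0.719% and 0.686% in the same order in wild type. The wild type call was lost when any of replicates 173, 175 and 209 of ZT9 or 156 and 159 of ZT21 was left out, and under median scaling the contrast was -0.80 (adjusted p = 0.17). At an unadjusted p under 0.05, 5 of the 8 Cirbp contrasts passed, but only ZT21 minus ZT9 in wild type did so after adjustment. The share of tested probes at the unadjusted cut was not computed for these contrasts.

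Rbm3 also had its highest measured group mean at ZT9 in both genotypes, but its hearts differed more within groups. In knockout its mean at ZT21, 9.75 (SD 0.12), was nearly level with that at ZT9, 9.76 (SD 0.92). With the fitted difference between the time sets removed, its highest mean was at ZT12 in knockout (9.67, against 9.47 at ZT9) and at ZT6 in wild type (9.47, against 9.40 at ZT9). At ZT9 Rbm3 had log2 intensities of 8.57, 9.78, 9.85 and 10.82 in knockout hearts, against 9.44, 9.74, 9.76 and 9.83 in wild type hearts. The lowest and the highest of these knockout hearts are the arrays of wide spread, and the wild type hearts lie close together. At ZT0 Rbm3 had 8.30, 8.79, 9.21 and 9.77 in knockout hearts, against 8.01, 8.07, 8.79 and 8.87 in wild type hearts. In wild type all ZT9 hearts were above all ZT0 hearts, and in knockout the groups overlapped. ZT9 and ZT0 held the highest and lowest wild type means and belong to different time sets. The share of tested probes that separate them was not computed.

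Knockout hearts were the higher ones on average at ZT3 and level with wild type at ZT6. At ZT3 Rbm3 had 9.39, 9.41, 9.81 and 9.82 in knockout hearts, against 8.64, 9.28, 9.43 and 9.67 in wild type hearts. At ZT6 Rbm3 had 8.76, 8.94, 8.96 and 10.16 in knockout hearts, against 8.63, 8.81, 9.15 and 10.16 in wild type hearts. In each genotype 1 ZT6 heart stood more than 1 log2 unit above the next, and both are arrays of wide spread.

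In the dark phase the knockout means were again the higher ones. At ZT12 Rbm3 had 9.03, 9.23, 9.60 and 9.67 in knockout hearts, against 8.73, 8.76, 9.39 and 9.42 in wild type hearts. At ZT15 Rbm3 had 9.16, 9.60, 9.62 and 9.98 in knockout hearts, against 8.80, 9.51, 9.54 and 9.93 in wild type hearts. Both pairs of groups overlapped. At ZT18 Rbm3 had 8.54, 8.69, 8.76 and 9.31 in knockout hearts, against 8.36, 8.43, 8.54 and 9.13 in wild type hearts. At ZT21 Rbm3 had 9.57, 9.75, 9.82 and 9.85 in knockout hearts, against 8.93, 9.20, 9.44 and 9.51 in wild type hearts. ZT21 was the only one of the 8 times at which no knockout heart overlapped the wild type hearts, and 14.5% of tested probes had groups that did not overlap then.

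The 24 h mean of Rbm3 was higher in knockout hearts and that of Cirbp was not called different. Rbm3 averaged a log2 intensity of 9.39 in knockout and 9.12 in wild type hearts, a difference of 0.27 ± 0.11 (SE), 1.20-fold, with a 95% interval from 0.053 to 0.485 and an adjusted p of 0.0464. In that comparison 34.4% of tested probes were called, 17% higher and 17.4% lower in knockout, so a call there is common on this array. Knockout means of Rbm3 exceeded wild type means at 8 of 8 times, as did those of 10% of tested probes. The Rbm3 call lies near the threshold. Leaving out a single array ended it for 32 of the 64 arrays (adjusted p from 0.0114 to 0.078 over all 64), without the detection filter (adjusted p = 0.0906) and without the time set term (adjusted p = 0.108). Without the 4 arrays of wide spread the difference was 0.28 (adjusted p = 0.00796). With median scaling the Rbm3 difference was 0.37 (adjusted p = 0.00463). That scaling also moved the median difference of all tested probes to 0.06, from -0.01 in the fit reported. Cirbp averaged 8.31 in knockout and 8.36 in wild type hearts, a difference of -0.05 ± 0.08 (SE) with a 95% interval from -0.21 to 0.11 (adjusted p = 0.673), and its sign turned under median scaling (0.045) and at ZT 3, 9, 15 and 21 alone (0.04). Without the 4 arrays of wide spread it was -0.10 (adjusted p = 0.323).

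**Figure D3:**
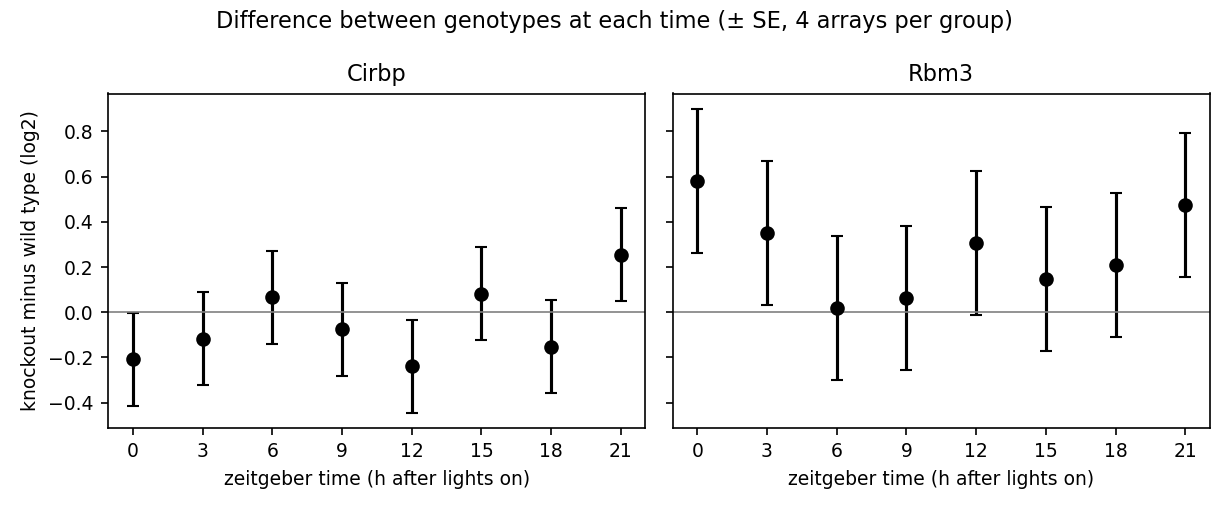
Knockout minus wild type difference in log2 intensity (± SE, 4 arrays per group) of Cirbp (left) and Rbm3 (right) at each zeitgeber time. The Cirbp differences lie on both sides of 0, from -0.24 to 0.25, and the 8 Rbm3 differences lie above 0, from 0.02 at ZT6 to 0.58 at ZT0.

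Taken time by time, 0 of 8 differences between genotypes passed the limma test for Cirbp and 0 of 8 for Rbm3, and 0 of each had an unadjusted p under 0.05. The share of tested probes called was 10.7% at ZT0, 3.74% at ZT3, 3.74% at ZT6, 8.54% at ZT9, 6.8% at ZT12, 5.19% at ZT15, 5.37% at ZT18 and 4.33% at ZT21. Groups that did not overlap were found for 12.6% of tested probes at ZT0, 11.4% at ZT3, 7.45% at ZT6, 7.93% at ZT9, 13% at ZT12, 12% at ZT15, 12.9% at ZT18 and 14.5% at ZT21, and by that measure 0 of 8 times separated the genotypes for Cirbp and 1 of 8 for Rbm3. The Rbm3 difference was largest at ZT0, 0.58 (1.5-fold, adjusted p = 0.230), and smallest at ZT6, 0.02 (1.01-fold). The Cirbp difference was positive at 3 of 8 times, and its lowest adjusted p was 0.536.

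The rhythm of Rbm3 passed the test in neither genotype. In knockout hearts its amplitude was 0.14 ± 0.11 (SE), 1.21-fold between peak and trough, with a peak at ZT 8.82 ± 3.06 h and an adjusted p of 0.751. Leaving out 1 array moved this amplitude between 0.0645 (without replicate 206 of knockout ZT9) and 0.222 (without replicate 170 of knockout ZT9), and it was 0.00930 at ZT 3, 9, 15 and 21 alone and 0.265 at ZT 0, 6, 12 and 18 alone. In wild type hearts it was 0.33 ± 0.11, 1.57-fold, with a peak at ZT 9.70 ± 1.27 h, an unadjusted p of 0.0147 and an adjusted p of 0.187. Without the 4 arrays of wide spread the amplitude was 0.11 in knockout (adjusted p = 0.850) and 0.29 in wild type (adjusted p = 0.0879). The amplitude in knockout minus that in wild type was -0.19 with a 95% interval from -0.50 to 0.12, and the joint test of the rhythm gave an adjusted p of 1.00. Of the 8 differences between times 12 h apart 0 passed the limma test, and 1 had an unadjusted p under 0.05 (ZT12 minus ZT0 in wild type, 0.64). The share of tested probes at that unadjusted cut was not computed. The standard error of the Rbm3 amplitude was larger than that of Cirbp, since the SD within groups was 0.47 for Rbm3, at the 97.7th percentile of tested probes, and 0.30 for Cirbp, at the 64.5th.

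The dim Rbm3 probe ILMN_2985568 passed neither the test of the mean nor that of the rhythm. Its 24 h mean was 5.16 in knockout and 5.19 in wild type hearts (difference -0.03, adjusted p = 0.786), and its rhythm had an adjusted p of 0.352 in knockout and 0.611 in wild type. With 3 knockout arrays and 1 wild type array above background it bears little on the transcript. It does not repeat the call of the brighter probe.

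Both genes differed between the time sets by more than most probes, Rbm3 the more so. At ZT 3, 9, 15 and 21 Rbm3 averaged 9.68 ± 0.46 in knockout and 9.42 ± 0.37 in wild type hearts, and at ZT 0, 6, 12 and 18 it averaged 9.11 ± 0.50 in knockout and 8.83 ± 0.54 in wild type (SD, n = 16 each). The fitted difference between the sets was 0.58 ± 0.11 (SE), 1.49-fold (adjusted p = 3.14e-05), and its size stood at the 99.6th percentile of tested probes. For Cirbp it was 0.30 ± 0.08 (SE), 1.23-fold (adjusted p = 0.00252), at the 91.8th percentile. Without the 4 arrays of wide spread it was 0.66 for Rbm3 (adjusted p = 3.24e-08) and 0.26 for Cirbp (adjusted p = 0.00408). In this term 32.8% of tested probes were called, and 15.2% of tested probes were called in the same direction as both genes. Median scaling shifted the middle of all tested probes between the sets by -0.16, and under it the difference was 0.35 for Rbm3 (adjusted p = 0.00449) and 0.08 for Cirbp (adjusted p = 0.418). The median scanner signal per array was 151 ± 19.9 at ZT 3, 9, 15 and 21 and 163.7 ± 15 at ZT 0, 6, 12 and 18 (SD, n = 32 each), and its part in these differences was not tested. A time set and a pattern that alternates every 3 h cannot be told apart in this design.

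The arrays of wide spread held the most extreme Rbm3 values. Their Rbm3 deviations from the group mean, -1.18 for replicate 170 and 1.07 for replicate 206 of knockout ZT9, 0.95 for replicate 2 of knockout ZT6 and 0.97 for replicate 1 of wild type ZT6, were the 4 largest in size among 64 arrays. The deviations go in both directions, with 1 of the 4 arrays below its group. For Cirbp 1 of the 4, knockout ZT9 replicate 206 at 0.69, was among the 4 largest.

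**Figure D4:**
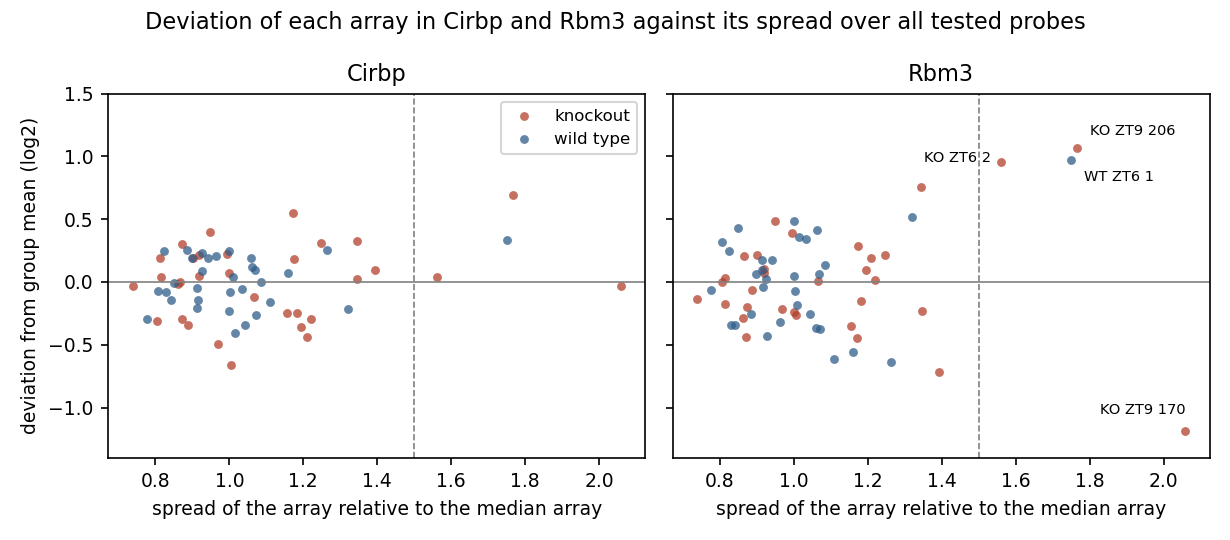
Deviation of each array from its group mean in Cirbp (left) and Rbm3 (right), in log2 units, against the array's spread over all tested probes relative to the median array, with knockout in red and wild type in blue and a dashed line at 1.5. The 4 arrays right of the line have the 4 largest Rbm3 deviations in size, and for Cirbp 1 of them is among the 4 largest.

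Hearts with more Cirbp than their group were not shown to have more Rbm3. Over 64 arrays the deviations from group means had Pearson's r = 0.182 (two-sided permutation p = 0.31, adjusted 0.517 over 5 subsets) and Spearman's rho = 0.118 (permutation p = 0.42, adjusted 0.69). Within ZT 3, 9, 15 and 21 r was 0.386 (permutation p = 0.18) and rho 0.348 (permutation p = 0.09), and within ZT 0, 6, 12 and 18 r was 0.007 (permutation p = 0.98) and rho -0.092 (permutation p = 0.66). In knockout r was 0.298 (permutation p = 0.24) and rho 0.292 (permutation p = 0.16), and in wild type r was -0.025 (permutation p = 0.91) and rho -0.085 (permutation p = 0.69). Without the 2 arrays farthest from the median Cirbp deviation r was 0.054, and without the 4 arrays of wide spread it was 0.009 (permutation p = 0.95). Over the 16 group means, with the time set term removed, the genes correlated at r = 0.391, and Rbm3 ranked 1328 of 8448 named genes in likeness to Cirbp, a description with arrays and times shared by all genes.

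The genes most like each member were found by the correlation of 16 group means, after removal of the time set term, over 8448 named genes. Nearest to Cirbp were Art1 (r = 0.899), an ADP-ribosyltransferase of muscle, Rab27a (0.889), a small GTPase of vesicle transport, Snapc4 (0.871), a subunit of the snRNA-activating complex, Sugp1 (0.853), a splicing factor, and Arih2 (0.851), a ubiquitin ligase. Art1 peaked at ZT 11.5 in knockout and ZT 11.5 in wild type, with amplitudes of 0.15 in knockout (adjusted p = 0.212) and 0.19 in wild type (adjusted p = 0.0275, and 0.225 with median scaling). Farthest from Cirbp were Unc119b (-0.867), Vps26c (-0.852), Ago2 (-0.821), Ublcp1 (-0.804) and Errfi1 (-0.797). Unc119b, which carries lipidated proteins to cilia, was rhythmic in both genotypes, with a peak at ZT 23.4 in knockout (amplitude 0.29, adjusted p = 3.5e-05) and ZT 23.9 in wild type (amplitude 0.30, adjusted p = 4e-06). Errfi1, an inhibitor of EGF receptor signalling, was also rhythmic in both, at ZT 23.0 in knockout (adjusted p = 0.031, and 0.169 without the 4 arrays of wide spread) and ZT 0.54 in wild type (adjusted p = 0.0259). All these genes were picked by their likeness to Cirbp over the day, so their rhythms and peak times are not independent of that choice.

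Nearest to Rbm3 were Chac1 (r = 0.895), which degrades glutathione and is induced by the integrated stress response, Usp22 (0.894), a deubiquitinase of the SAGA complex, Golim4 (0.877), a Golgi membrane protein, Gm9731 (0.852) and Exosc1 (0.842), an RNA exosome subunit. Chac1 averaged 8.01 in knockout and 7.31 in wild type hearts, a difference of 0.70 (adjusted p = 1.21e-05), and its rhythm had an amplitude of 0.44 in knockout (adjusted p = 0.142) and 0.66 in wild type (adjusted p = 0.00189, peak at ZT 8.23). Exosc1 (0.10, adjusted p = 0.0224) and Golim4 (0.15, adjusted p = 0.0431) also had a higher 24 h mean in knockout. Farthest were Edrf1 (-0.907), Pdzrn3 (-0.901), Nacc2 (-0.885), Notch1 (-0.881) and Aktip (-0.874), of which Pdzrn3, Nacc2, Notch1 and Aktip had a lower mean in knockout, Pdzrn3 by -0.21 (adjusted p = 9e-07). None of these 4 was called with median scaling (Pdzrn3 -0.10, adjusted p = 0.149). The likeness measure includes the genotype difference and the course over the day, so these means and rhythms are not independent of it.

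Of 12 other genes, listed as cold-shock and related RNA-binding genes, 7 were measured. The list also holds Serpinh1, a collagen chaperone, and Rtn3, a reticulon that was not measured, and neither is an RNA-binding gene. By the limma test 0 were rhythmic in knockout and 1 was rhythmic in wild type (2 in knockout and 1 in wild type at an unadjusted p under 0.05). Of the 2 in knockout 1 was Serpinh1 and the other Rbm14, an RNA-binding gene. Over all tested probes 1.17% in knockout and 3.55% in wild type were called, and 14.0% in knockout and 14.4% in wild type had an unadjusted p under 0.05. The rhythmic one was Rbmx, an hnRNP protein of splicing, with an amplitude of 0.11 in knockout (adjusted p = 0.400) and 0.21 in wild type (adjusted p = 0.0089, peak at ZT 13.6). In the 24 h mean 1 was higher and 1 lower in knockout: Rbm4, a splicing regulator, at 7.84 in knockout and 7.57 in wild type hearts (0.27, adjusted p = 5.11e-06), and Ybx3, a cold-shock domain protein, at 8.70 in knockout and 9.10 in wild type (-0.40, adjusted p = 3.65e-08). The median difference of the list was -0.05, the value of Serpinh1. It was 0.05 with median scaling, which ended the Rbmx call (adjusted p = 0.137). Over all tested probes the median difference was -0.01, with 17% called higher and 17.4% called lower in knockout. The median amplitude was 0.10 in knockout and 0.11 in wild type, beside 0.09 in each genotype over all probes.

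Of the heat shock genes 20 of 22 were measured. By the limma test 0 were rhythmic in knockout and 0 in wild type, beside 1.17% of all tested probes in knockout and 3.55% in wild type. At an unadjusted p under 0.05 there were 5 in knockout and 0 in wild type, beside 14.0% of all tested probes in knockout and 14.4% in wild type. Hspa4l, an HSP110 family chaperone, had the smallest adjusted p, with an amplitude of 0.27 peaking at ZT 21.0 in knockout (adjusted p = 0.225) and 0.22 peaking at ZT 19.1 in wild type (adjusted p = 0.354). Hspa8, the constitutive HSC70 chaperone, had an amplitude of 0.10 peaking at ZT 21.9 in knockout (adjusted p = 0.262) and 0.03 in wild type (adjusted p = 0.910). In the 24 h mean 1 was higher and 4 were lower in knockout, beside 17% higher and 17.4% lower of all tested probes. The higher one was Hsph1, an HSP110 chaperone (0.45), and the lower ones were Hspe1 (-0.30) and Hspd1 (-0.25), the mitochondrial chaperonins, Fkbp4 (-0.22), a cochaperone of HSP90, and Hspa5 (-0.34), the chaperone of the endoplasmic reticulum. Hsph1, Hspd1, Fkbp4 and Hspa5 are named after their values were seen. With median scaling 3 heat shock genes were higher and 0 lower, so the direction of the list depends on the scaling. Among heat shock factors and temperature-gated channels 3 of 10 were measured, and Hsf2, a heat shock factor, was rhythmic in wild type (amplitude 0.36, peak at ZT 19.9, adjusted p = 0.049) and not called in knockout (0.15, adjusted p = 0.647). The Hsf2 call was lost without the 4 arrays of wide spread (adjusted p = 0.103) and without the detection filter (adjusted p = 0.0902).

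Splicing factors of the SR family and their CLK kinases, whose activity is known to follow body temperature, included 2 genes called rhythmic. Both peaked in the light phase, and their calls were lost with median scaling. Of 18 listed genes 14 were measured, with 1 rhythmic in knockout and 2 in wild type, beside 1.17% of all tested probes in knockout and 3.55% in wild type. At an unadjusted p under 0.05 there were 3 in knockout and 3 in wild type, beside 14.0% of all tested probes in knockout and 14.4% in wild type. These were Srsf5 and Srsf6 in each genotype, Srsf10 in knockout and Srpk2 in wild type. Srsf10 (peak at ZT 21.8 in knockout) and Srpk2 (peak at ZT 22.0 in wild type) peaked in the dark phase, unlike Srsf5 and Srsf6. Srsf6 had an amplitude of 0.21 in knockout, peaking at ZT 9.71 (adjusted p = 0.0453), and 0.21 in wild type, peaking at ZT 7.76 (adjusted p = 0.0209). Srsf5 had an amplitude of 0.29 in knockout, peaking at ZT 7.78 (adjusted p = 0.153), and 0.36 in wild type, peaking at ZT 7.42 (adjusted p = 0.0231). The rhythm of neither differed between genotypes by the test of the difference (adjusted p = 1.00 each). In the 24 h mean 0 of the 14 were higher and 7 were lower in knockout, beside 17% higher and 17.4% lower of all tested probes. Among the lower ones were Srsf2 (-0.14, adjusted p = 0.000839) and Srsf6 (-0.13, adjusted p = 0.0437), and the list's median difference was -0.13. With median scaling 0 were higher and 0 lower (median -0.03), and 0 were rhythmic in either genotype, with Srsf6 at an adjusted p of 0.236 in knockout and 0.444 in wild type and Srsf5 at 0.183 in wild type.

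**Figure D5:**
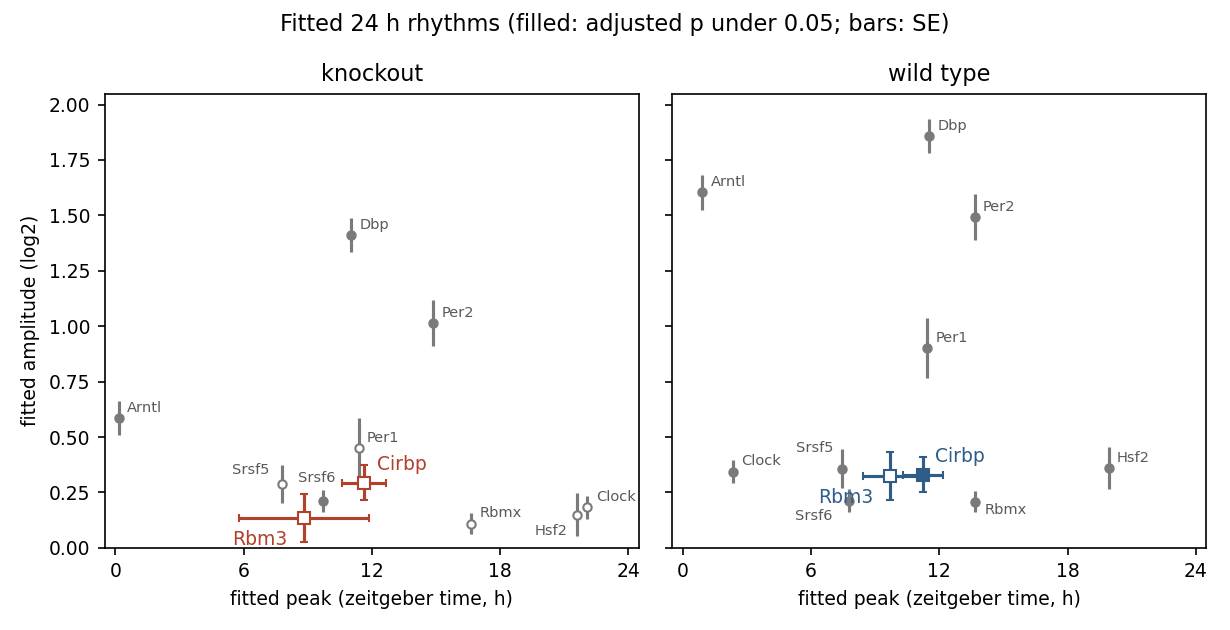
Fitted amplitude (log2) against fitted peak time in knockout (left) and wild type (right) for Cirbp and Rbm3 (coloured squares) and selected genes of the clock, splicing, RNA-binding and heat shock lists (grey), with SE bars and filled symbols where the rhythm had an adjusted p under 0.05. Cirbp, at amplitudes of 0.29 in knockout and 0.33 in wild type, lies at the phase of Dbp and Per1 but far below the 1.41 in knockout and 1.86 in wild type of Dbp.

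Of 7 transcripts reported as CIRBP targets 6 were measured, and Clock was the only one called in any of the tests of rhythm and mean. Over all tested probes 1.17% were called rhythmic in knockout, 3.55% in wild type and 34.4% in the mean. Clock had an amplitude of 0.18 in knockout (adjusted p = 0.121) and 0.34 in wild type (adjusted p = 1.35e-05), and its 24 h mean was 10.12 in knockout and 9.47 in wild type (0.65, adjusted p = 1.07e-16). The others included Kcnd2, which encodes a channel subunit of the transient outward potassium current, at 6.46 in knockout and 6.32 in wild type. The phosphodiesterase Pde4b, at 5.18 in knockout and 5.23 in wild type, was near background. It was detected on 6 knockout and 8 wild type arrays, so its values bear little on the transcript.

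Some clock and glucocorticoid-responsive genes are known to follow signals from the rest of the body. Of 6 such genes, all measured, 2 were rhythmic in knockout (Per2 and Tsc22d3) and 4 in wild type (Per1, Per2, Tsc22d3 and Fkbp5), and 3 had a lower mean in knockout. Over all tested probes 1.17% were rhythmic in knockout and 3.55% in wild type, and 17.4% had a lower mean in knockout. With median scaling 1 of the 6 genes was rhythmic in knockout, 4 were in wild type and 2 were lower. Per2, a repressor of the clock, peaked at ZT 14.9 in knockout (amplitude 1.01) and ZT 13.7 in wild type (amplitude 1.49). Per1 peaked at ZT 11.4 in knockout (amplitude 0.45, adjusted p = 0.150) and ZT 11.4 in wild type (amplitude 0.90, adjusted p = 1.13e-05), next to the Cirbp peaks. Among 5 measured marks of clock phase 4 were rhythmic in knockout and 5 in wild type, and 2 of them, Arntl and Nr1d1, differed in rhythm between genotypes. Over all tested probes 0.24% differed in rhythm. Per3, called rhythmic in both genotypes, was near background, with detection on 4 knockout and 16 wild type arrays. Dbp, a direct target of CLOCK and BMAL1, had an amplitude of 1.41 peaking at ZT 11.04 in knockout and 1.86 peaking at ZT 11.5 in wild type. Arntl had an amplitude of 0.59 in knockout and 1.60 in wild type (adjusted p of the difference = 2.2e-09), where the joint test for Cirbp gave 1.00.

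Some markers of other cell types differed in the 24 h mean between genotypes, where 17% of all tested probes were higher and 17.4% lower in knockout. The median scanner signal per array was 162.4 ± 19.5 in knockout and 152.4 ± 16.5 in wild type (SD, n = 32 each). The 4 of 4 myeloid markers were lower in knockout, and their summed intensity ranged from 2106 to 3686 in knockout and 2383 to 5126 in wild type. Of the skeletal muscle markers Myl1, a myosin light chain, was lower (-0.81, adjusted p = 1.74e-10), and the list had sums of 845 to 3916 in knockout and 1951 to 4573 in wild type. Atp2a1 (detected on 1 knockout and 9 wild type arrays) and Pvalb (0 knockout and 5 wild type arrays) passed the filter mostly through the wild type arrays, so no count of this list is given. Of the endothelial markers 3 of 4 were lower (2038 to 3348 in knockout, 2555 to 3461 in wild type). Of the adipocyte markers 2 of 5 were measured, with sums of 701 to 1378 in knockout and 520 to 805 in wild type, and Cidea alone was higher (0.81, adjusted p = 8.49e-22), while Ucp1, which marks brown fat, did not pass the filter. Fibroblast markers were higher for 2 of 4 (8811 to 14881 in knockout, 10310 to 15078 in wild type), smooth muscle markers lower for 1 of 3 (4333 to 8782 in knockout, 5036 to 9760 in wild type) and red blood cell markers lower for 1 of 3 (1320 to 4419 in knockout, 1391 to 5569 in wild type). Of the 6 measured cardiomyocyte markers 1 was higher and 3 were lower, with sums of 104072 to 128612 in knockout and 104249 to 132198 in wild type. In the tests of rhythm 0 of the 30 measured markers were called in knockout and 0 in wild type by limma, with 4 in knockout and 2 in wild type at an unadjusted p under 0.05, beside 14.0% of all tested probes in knockout and 14.4% in wild type. With median scaling 1 of 4 myeloid, 0 of 4 endothelial and 0 of 6 cardiomyocyte markers were lower in knockout. The part of these markers in the Rbm3 difference was not tested.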

How the data were processed

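Scanner intensity per probe and array, and a detection p-value against the negative controls of that array, were deposited by the authors, with no normalization visible, per the file headers. The sources used here name no software. A processed intensity was deposited too, linear and with 26.2% of values below 0, which ranked the probes of 64 of 64 arrays as their own scanner values do (Spearman correlation 1). It was used as an alternative. Background was removed with normexp, estimated from the detection p-values (offset 16), and arrays were quantile normalized and put on the log2 scale with limma 3.58.1 in R 4.3.3. The 12101 probes (of 25697) detected at p under 0.01 on 4 or more arrays were tested. Of all probes 23978 have 1 gene symbol in the platform annotation, 0 have several and 1719 have none. Each probe was fitted over all 64 arrays by a mean, cosine and sine of 24 h per genotype plus the time set, and by a mean per group for single times, with Benjamini-Hochberg adjustment at 0.05. The limma fits were tested on simulated data. Correlations used 100000 permutations within groups. The precision of arrays is limited by their number.

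The members, the 15 gene lists (115 entries) and the tests were chosen with earlier results of these data known, so the lists support nothing on their own. Genes named are both members, up to 6 per list with the smallest adjusted p for rhythm, the 5 most and 5 least like each member, and Arntl and Dbp. For a gene with several probes, the highest mean was used. Alternatives were other scalings, the authors' processed values, no filter, no time set term, each time set alone, a 12 h harmonic, and arrays left out.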

Additional observations from a re-analysis of the deposited data

Results flagged for a closer look

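In 48 groups of 4 arrays (2 genotypes, 8 times and 3 tested probes), 3 held an array whose gap to its neighbour was large against the range of its group, where chance gives about 1 in 20. Replicate 2 of knockout ZT6 had an Rbm3 log2 intensity of 10.157, against 8.762 to 8.963 for the others of its group, and is 1 of the 4 arrays of wide spread. Replicate 30 of wild type ZT12 had a Cirbp log2 intensity of 8.706, against 8.422 to 8.448 for the others. Replicate 85 of wild type ZT18 had a log2 intensity of 6.061 on the dim Rbm3 probe, against 5.242 to 5.327 for the others.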

How the results depend on the processing

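The wild type rhythm of Cirbp (amplitude 0.329, adjusted p = 0.0196) was not called with median scaling (0.315, adjusted p = 0.0822), without the time set term (0.329, 0.0522), at ZT 0, 6, 12 and 18 alone (0.236, 0.587) or at ZT 3, 9, 15 and 21 alone (0.460, 0.0957), and leaving out 1 array in turn gave 0.3003 to 0.3561. The Rbm3 mean difference (0.269, adjusted p = 0.0464) was not called without the filter (0.269, 0.0906), without the time set term (0.269, 0.108), at ZT 0, 6, 12 and 18 alone (0.279, 0.213), at ZT 3, 9, 15 and 21 alone (0.258, 0.227) or with a 12 h harmonic (0.269, 0.0507), and ranged from 0.233 to 0.312 with 1 array left out. Sets alone and left-out arrays hold fewer samples, and otherwise the cause was not tested. With median scaling 51 probes were rhythmic in knockout (142 in the fit reported), 240 in wild type (430) and 14 differed in rhythm (29). At ZT 0, 6, 12 and 18 alone these counts were 21, 113 and 10. At ZT 3, 9, 15 and 21 alone 131 were rhythmic in wild type, 12 differed in rhythm and 2377 differed in mean (4159). Without the 4 arrays of wide spread, an alternative chosen after seeing the data, 92 were rhythmic in knockout. The member contrasts over 12 h gave 0 calls with median scaling (1 in the fit reported) and 0 to 1 with 1 array left out. Of the called mean differences 78.3% were higher in knockout with median scaling and 49.5% in the fit reported. Of the alternatives run for other named genes 2252 kept their side of the threshold, 31 gained a call, 102 lost one and 0 reversed. No paired analysis was possible because the groups share no replicate numbers, and the array chip as a block was not run because the file headers name no chips.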
